A study of Mus musculus with 12 samples.

Results

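The libraries described here are the 6 made from mouse CD4+ T cells that had been exposed to 10-carboxymethyl-9-acridanone (CMA), out of 12 libraries in the series. They were chosen by their titles: 3 from wild-type (WT) T cells with CMA and 3 from STINGgt/gt T cells with CMA, which the labels call STING KO. Both groups received the same compound, so the comparison asks which transcripts in CMA-treated cells differ between cells with and without functional STING. It was made for each of the 13811 genes with enough reads to test. The remaining 6 libraries, 3 of each genotype with the solvent DMSO, serve as the background measured in the same way, and their levels are given as mean ± SD of 3 libraries.

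Per the labels, the cells came from the spleen of C57BL/6 mice and were cultured with CMA or DMSO for 16 h. Per the methods of the study, the mice were 8 to 12 weeks old, naive T cells were sorted, activated for 2 days with antibodies to CD3 and CD28, and rested for 1 day without them before CMA or DMSO was added. STINGgt/gt (Goldenticket) mice carry a point mutation in the STING gene, Tmem173, and lack the protein. All libraries are thus from previously activated cells, and each group is a culture of sorted cells rather than a tissue. In the study, WT but not STINGgt/gt T cells bound Annexin V, a sign of apoptosis, after 16 h with CMA. How many cells were dying in the cultures sequenced here is not given, and their part in the differences was not tested. The study describes its replicates as biological, but the labels do not say whether they came from separate mice or separate cultures, and p-values measure the spread between these libraries only. In 5 of 6 cases the sample names of the DMSO and CMA libraries with the same genotype and number share their first digit, and the labels do not say what that digit stands for.

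STING is an adaptor protein of the endoplasmic reticulum that is activated by cyclic dinucleotides, which the sensor cGAS makes on meeting DNA in the cytosol. Activated STING recruits the kinase TBK1, which phosphorylates the transcription factor IRF3, and it also activates NF-kB. Type I and type III interferons are then made and act through their receptors and JAK kinases on a large set of interferon-stimulated genes. CMA is a small cell-permeable compound that binds and activates mouse STING.

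Reads assigned to genes numbered 32524234 to 36667868 in the WT libraries with CMA and 37104838 to 43784910 in the STINGgt/gt libraries with CMA, so the STINGgt/gt libraries were all deeper. Levels are given in CPM, the reads of a gene as a part of all reads of its library on a common scale, after scaling by the trimmed mean of M values. Over all genes tested, the root mean square log2 distance between 2 libraries was 0.246 to 0.266 within the WT group, 0.245 to 0.259 within the STINGgt/gt group and 1.04 to 1.07 between the groups. With DMSO the distance between the genotypes was 0.579 to 0.622. Reads outside annotated genes made up 6.79% to 7.16% of the WT and 6.02% to 6.33% of the STINGgt/gt libraries with CMA.

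Tmem173, the gene that carries the mutation, had 296, 304 and 316 CPM in the 3 WT libraries and 184, 169 and 175 CPM in the 3 STINGgt/gt libraries. Its log2 difference, WT minus STINGgt/gt, was 0.80 (SE 0.046, edgeR adjusted p = 1.06e-10). The transcript was present in both groups and was higher in every WT library. A point mutation leaves the transcript countable, so its level does not check the genotype label.

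Defining T cell transcripts were present in all libraries. Of 10 T cell markers, 2 were higher in WT, 4 were lower and 4 did not pass the threshold, and their summed level was 3777 to 3813 CPM in WT and 3968 to 4069 CPM in STINGgt/gt cells. Transcripts of other cell types were also found, and more of them in WT. The summed level of 8 B cell markers was 835 to 928 CPM in WT and 345 to 356 CPM in STINGgt/gt cells, and all 8 were higher in WT. The summed level of 9 myeloid markers was 113 to 119 CPM in WT and 48.8 to 53.3 CPM in STINGgt/gt cells, with 8 of 9 higher in WT. With DMSO, B cell markers summed to 743 to 820 CPM in WT and 327 to 341 CPM in STINGgt/gt cells, and myeloid markers to 86.1 to 93.3 CPM and 50.9 to 54.3 CPM. Adgre1 and Siglech, markers of macrophages and plasmacytoid dendritic cells, had at most 6 reads and 1 read in any library with CMA. In bulk RNA, more cells of a type and more RNA per cell cannot be told apart.

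With CMA, 10151 of 13811 genes differed between the genotypes at an adjusted p under 0.05, which is 73.5% of all genes tested. Of these, 5104 were higher in WT (37.0% of genes tested) and 5047 were lower (36.5%). Most differences were small: the median log2 difference was 0.67 among the genes higher in WT and -0.55 among those lower, and 21.3% of all genes passed the threshold with at least a 2-fold difference. The large differences lay mostly on the side of WT. At least 2-fold differences numbered 1797 higher and 1139 lower, at least 8-fold differences 313 and 69, and at least 32-fold differences 106 and 12. The background for each gene group is therefore 37.0% higher and 36.5% lower, around a median log2 difference of -0.0047 over all genes. This balance depends on the scaling: with library-size scaling 4706 genes were higher and 5450 lower in WT. With DMSO 42.7% of genes differed between the genotypes, and for 58.8% the genotype difference changed between DMSO and CMA. Among the 153 genes named here that passed the threshold and had a read in each group, the SE of the log2 difference with CMA was 0.067 at the median and 0.55 at most, and the adjusted p was at most 0.0414. No WT library overlapped a STINGgt/gt library for these genes. The rule for the largest and smallest differences required this, and the share over all genes is not given here.

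**Figure D1:**
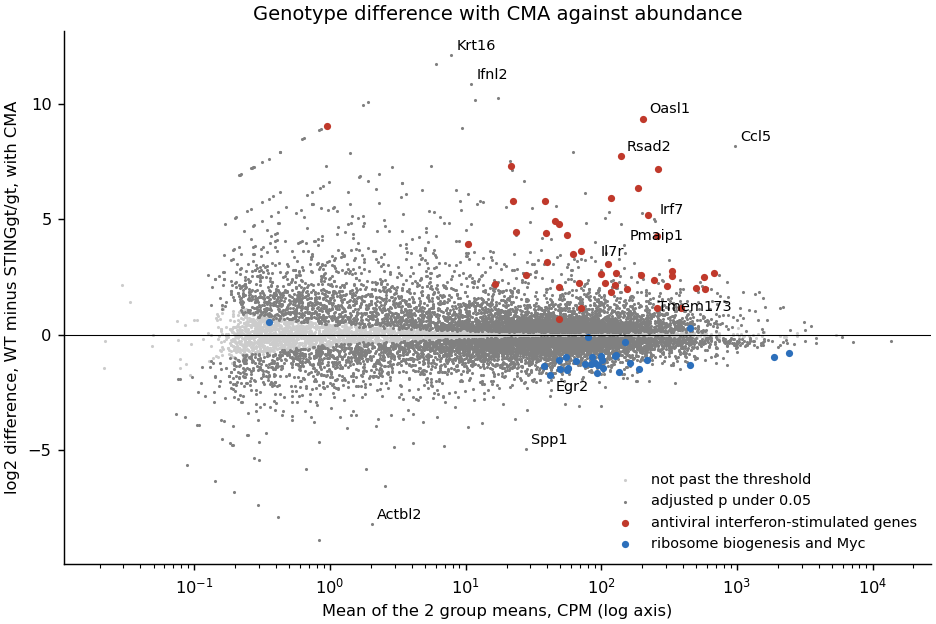
Log2 difference between WT and STINGgt/gt T cells with CMA (vertical axis) against the mean of both group means in CPM (horizontal log axis), 1 point per gene. Antiviral interferon-stimulated genes (red) lie above 0 and most ribosome biogenesis genes (blue) lie below it, with Oasl1 at 9.37 and Spp1 at -4.98.

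In reads, the genes that were higher in WT took up 44.6% to 44.7% of all gene reads in the WT libraries and 28.4% to 28.6% in the STINGgt/gt libraries. The genes that were lower took up 36.9% to 37.0% and 52.2% to 52.6%. Genes at least 2-fold higher accounted for 13.1% to 13.3% of reads in WT and 4.32% to 4.41% in STINGgt/gt cells. Some genes had few or no reads in 1 genotype: 92 had more than 10 reads in every WT library and at most 3 in every STINGgt/gt library, and 32 showed the opposite.

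The largest differences in favour of WT, among genes with a mean of at least 50 reads and no overlap between groups, included both lambda interferons of the mouse, an interferon-stimulated gene, a chemokine and several genes better known from other tissues. Krt16, a keratin, had 540, 480 and 541 reads in the WT and 0 reads in all 3 STINGgt/gt libraries, which makes it at least 626-fold higher when 3 reads over the group are taken as the floor. Gm5538 was at least 481-fold higher, Pax4 at least 154-fold and the renin gene Ren1 at least 139.5-fold, each with 0 reads in the STINGgt/gt libraries. Inhbb, which encodes the beta B chain of activin and inhibin, had 1194, 1154 and 1119 reads in WT and 1, 2 and 0 reads in STINGgt/gt libraries, a ratio of 1390.1 (95% exact interval 475 to 6744, counting error only). Tacr2, the neurokinin A receptor, had 18.9, 18.4 and 18.5 CPM in WT and 0.0799, 0.0226 and 0 CPM in STINGgt/gt cells. These genes were at or near 0 in every STINGgt/gt library. In WT with DMSO, Krt16 averaged 0.107 ± 0.111 CPM, Inhbb 0.0913 ± 0.0218 CPM and Tacr2 0.144 ± 0.0499 CPM.

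In the other direction, Spp1, which encodes osteopontin, had 1.65, 1.39 and 2.11 CPM in the WT and 61.9, 52.5 and 47.7 CPM in the STINGgt/gt libraries, a log2 difference of -4.98 (SE 0.17, adjusted p = 1.74e-13). Npas4, an activity-induced transcription factor, had 0.558, 0.401 and 0.410 CPM in WT and 14.8, 12.4 and 12.9 CPM in STINGgt/gt cells. Actbl2, an actin-like gene, had 1 read in the 3 WT libraries together and 172, 185 and 131 reads in the STINGgt/gt libraries, a ratio of 406 (95% exact interval 72.5 to 16057). The retinol dehydrogenase gene Dhrs9 (-6.57), 1700019D03Rik (-5.84), Frrs1l (-4.89), Dnah7a (-4.70), Col15a1 (-4.04), Angptl2 (-4.02) and Drc1 (-3.96) completed the 10 lowest log2 differences among called genes with a mean of at least 50 reads over the 6 libraries and no overlap between the groups, a rule that leaves out genes with fewer reads and larger differences. With DMSO the 10 were also lower in WT, by smaller log2 differences such as -1.24 for Spp1.

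Of 25 tested genes that sense cytosolic DNA or carry the STING signal, 13 were higher in WT, 6 were lower and 6 did not pass the threshold, with a median log2 difference of 0.23. Ifi204, a DNA-binding member of the interferon-inducible p200 family, stood at 42.8, 39.3 and 44.4 CPM in WT and 0.319, 0.181 and 0.182 CPM in STINGgt/gt cells (log2 difference 7.53, SE 0.15, adjusted p = 2.84e-16). Samhd1, which degrades deoxynucleotides, was 2.99-fold higher, and Trim56, a ubiquitin ligase linked to STING, was 2.73-fold higher. Tbk1 had 79.1, 75.7 and 80.6 CPM in WT and 54.99, 58.3 and 56.5 CPM in STINGgt/gt cells (log2 difference 0.47), and Irf3 was lower in WT, at 53.6, 53.2 and 47.8 CPM against 67.8, 65.97 and 70.5 CPM (log2 difference -0.40, adjusted p = 4.33e-05). The nuclease gene Trex1 was listed at 0 reads in all 6 libraries and was not tested. Its annotated span lies within another gene on the same strand, so reads from it may have been counted as ambiguous, and the 0 does not show that it was not expressed.

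Transcripts of type I and type III interferons were found almost only in WT cells with CMA, and at low levels. Of 21 interferon genes, 5 had enough reads to test, and all 5 were higher in WT. Ifnb1, encoding interferon beta, had 58, 55 and 34 reads in WT and 1, 1 and 1 in STINGgt/gt libraries, a ratio of 58.9 (95% exact interval 19.8 to 289). Ifna4 had 63, 61 and 66 reads against 1, 3 and 1, and among the untested alpha genes Ifna1 had 3, 8 and 8 reads in WT and none in STINGgt/gt cells, and Ifna2 had 13, 4 and 2 reads against 2, 1 and 0. The lambda genes were read more. Ifnl2 and Ifnl3 are near-identical copies whose reads cannot be assigned safely to 1 of them, and their summed reads were 1767, 1643 and 1152 in the WT and 0, 1 and 2 in the STINGgt/gt libraries. With DMSO the sums were 2, 3 and 1 in the STINGgt/gt and 1, 0 and 2 in the WT libraries. Ifng, the type II interferon made by T cells, was the exception in its background: it had 36.3, 35.2 and 30.9 CPM in WT and 11.7, 8.55 and 9.20 CPM in STINGgt/gt cells with CMA, and averaged 56.8 ± 0.593 CPM and 11.9 ± 0.850 CPM with DMSO, so its genotype difference was present under both treatments and was smaller with CMA (change in log2 difference -0.45, adjusted p = 0.00705).

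Receptors and factors that pass on the interferon signal were mostly higher in WT: 21 of 27 tested, with 2 lower and 4 not past the threshold, and a median log2 difference of 0.73. Irf7, the factor that amplifies interferon gene transcription, had 479, 482 and 459 CPM in WT and 16.1, 14.2 and 13.8 CPM in STINGgt/gt cells, a 32.2-fold difference (log2 5.01, SE 0.14, adjusted p = 7.77e-15). Usp18, which restrains signalling at the type I receptor, had 475, 477 and 484 CPM against 15.9, 15.2 and 15.3 CPM. Irf5 was 7.04-fold higher. Irf4, a factor induced by antigen receptor signals, had a log2 difference of 0.045 (adjusted p = 0.426). All 3 WT libraries lay far above the STINGgt/gt libraries for Irf7 and Usp18, and the groups overlapped for Irf4. Irf8 (-1.10) and Ifnlr1 (-1.84), which encodes the lambda receptor chain, were the 2 members lower in WT.

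Antiviral interferon-stimulated genes, whose products block the life cycle of viruses at many steps, were higher in WT without exception. All 44 tested members were higher in WT, 43 of them by at least 2-fold, with a median log2 difference of 2.74 against -0.0047 over all genes. With DMSO, 7 of the same 44 were higher in WT, 15 were lower and 22 did not pass the threshold, with a median of -0.11. Oasl1, of the oligoadenylate synthetase family, had 421, 425 and 379 CPM in the WT and 0.506, 0.656 and 0.676 CPM in the STINGgt/gt libraries (log2 difference 9.37, SE 0.086, adjusted p = 4.73e-20). Rsad2, which encodes the antiviral enzyme viperin, had 292, 275 and 271 CPM against 1.14, 1.36 and 1.38 CPM, a 215-fold difference. Ifit3, an RNA-binding antiviral protein, was 159-fold higher at a mean of 42.9 ± 2.45 CPM against 0.265 ± 0.0494 CPM. Oas1g had 73, 62 and 55 reads in WT and none in the STINGgt/gt libraries, and was at least 76.2-fold higher. The members with the most reads followed: Rnf213, a large ubiquitin ligase, was 6.36-fold higher and Helz2, a helicase, 3.98-fold. Ifit2 had 202, 192 and 205 CPM against 21.6, 24.5 and 24.6 CPM (log2 difference 3.08, adjusted p = 1.86e-15). As for the other called genes named here, no WT library overlapped a STINGgt/gt library for any gene named in this paragraph.

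Shown are the promoters of the 4 interferon-stimulated genes with the largest fitted log2 differences. The place of Oas1g among them is uncertain, since it had no reads in the STINGgt/gt libraries with CMA. Type I and III interferons act on interferon-stimulated genes through the interferon-stimulated response element (ISRE). Each window runs from 250 bases before to 50 bases after the start of the RefSeq gene model in GRCm38.p6, 5′ to 3′ on the strand of the gene, and capitals mark a match to the ISRE core GAAANNGAAA on either strand. Oasl1 lies at chr5:114922990-114923289 on the plus strand, Oas1g at chr5:120887564-120887863 on the minus strand, Rsad2 at chr12:26456403-26456702 on the minus strand and Ifit3 at chr19:34583279-34583578 on the plus strand.
Oasl1: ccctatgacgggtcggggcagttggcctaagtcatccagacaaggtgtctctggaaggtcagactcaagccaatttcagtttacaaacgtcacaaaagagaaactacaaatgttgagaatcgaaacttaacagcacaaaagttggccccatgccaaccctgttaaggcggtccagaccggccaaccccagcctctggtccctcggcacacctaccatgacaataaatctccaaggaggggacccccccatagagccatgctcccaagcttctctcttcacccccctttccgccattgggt
Oas1g: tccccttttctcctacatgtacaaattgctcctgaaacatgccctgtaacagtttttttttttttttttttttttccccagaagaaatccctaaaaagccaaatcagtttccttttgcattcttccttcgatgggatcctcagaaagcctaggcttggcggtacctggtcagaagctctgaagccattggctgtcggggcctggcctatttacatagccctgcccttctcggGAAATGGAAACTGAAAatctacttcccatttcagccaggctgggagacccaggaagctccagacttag
Rsad2: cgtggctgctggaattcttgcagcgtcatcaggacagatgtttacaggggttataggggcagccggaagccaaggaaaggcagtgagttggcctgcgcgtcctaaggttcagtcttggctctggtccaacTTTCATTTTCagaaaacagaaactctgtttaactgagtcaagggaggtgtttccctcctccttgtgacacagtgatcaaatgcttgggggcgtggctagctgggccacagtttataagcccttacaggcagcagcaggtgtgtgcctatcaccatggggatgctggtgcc
Ifit3: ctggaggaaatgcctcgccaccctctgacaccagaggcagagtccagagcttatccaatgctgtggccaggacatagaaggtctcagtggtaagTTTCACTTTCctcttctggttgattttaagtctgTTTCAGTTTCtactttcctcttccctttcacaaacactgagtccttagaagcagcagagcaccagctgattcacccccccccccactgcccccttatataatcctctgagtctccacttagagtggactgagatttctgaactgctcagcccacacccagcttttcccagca
Oas1g holds 2 overlapping cores that begin 18 and 12 bases before the start site, Rsad2 holds 1 core that begins 120 bases before it, and Ifit3 holds 2 that begin 156 and 122 bases before it. The letters searched are not in the Oasl1 window.

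Over all tested genes, 10279 of 13811 matched a gene in the promoter table, with 13108 windows, and 3.20% of these held the ISRE core. The share was 4.04% in genes higher in WT, 2.51% in genes lower and 2.91% in genes not past the threshold. It was 6.37% of 1601 windows in genes at least 2-fold higher and 14.6% of 274 windows in genes at least 8-fold higher. On the lower side it was 2.38% of 1092 windows in genes at least 2-fold lower and 6.45% of 62 windows in genes at least 8-fold lower. By list, the core was in 52.6% of 38 windows of antiviral interferon-stimulated genes, in 81.8% of 11 windows of guanylate-binding proteins and immunity-related GTPases, and in 25% of 20 windows of MHC class I genes. The interferon gamma activated site TTCNNNGAA, which reads the same on both strands and which binds STAT dimers, was in 6.82% of all windows and in 54.5% of those of the guanylate-binding protein list. E2F motifs, TTTCCCGC or TTTGGCGC on either strand, were in 2.87% of all windows and in 29.7% of 37 windows of DNA replication genes. They were in 1.31% of windows of genes at least 2-fold higher in WT and in 1.92% of windows of genes at least 2-fold lower. These shares describe letters in a window and were not tested.

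**Figure D2:**
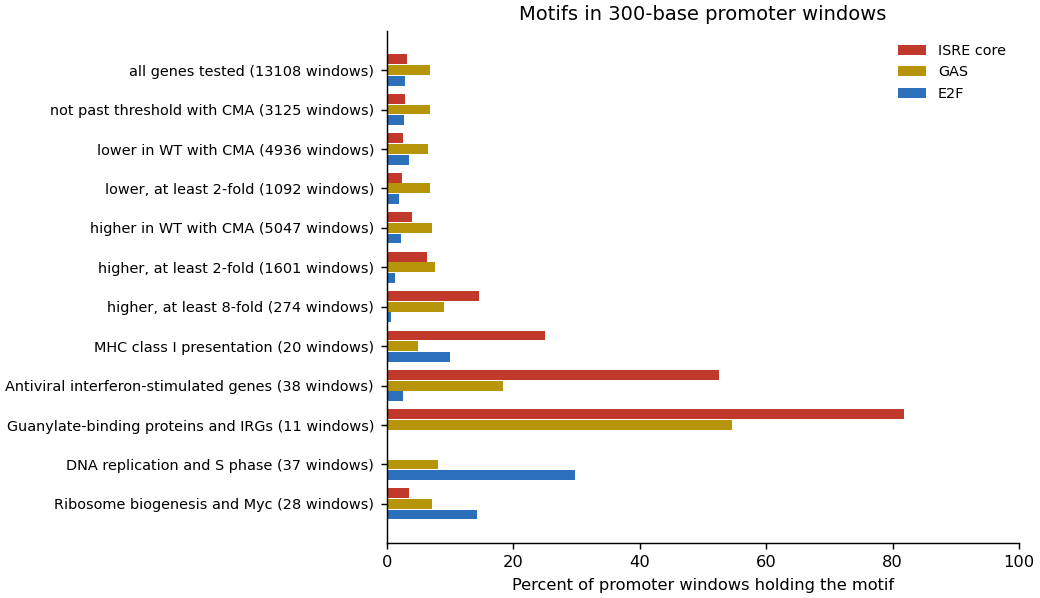
Percent of 300-base promoter windows (horizontal axis) that hold the ISRE core, the interferon gamma activated site (GAS) or an E2F motif, for all genes tested, genes by direction and size of the difference with CMA, and 5 gene lists. The ISRE share is 3.20% over all windows and 52.6% over windows of antiviral interferon-stimulated genes.

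Guanylate-binding proteins and immunity-related GTPases, which attack vacuoles that hold microbes and answer strongly to interferon gamma, were all higher in WT with CMA (16 of 16, median log2 difference 1.16). Gbp9 had 257, 245 and 263 CPM in WT and 76.2, 82.7 and 76.4 CPM in STINGgt/gt cells (log2 difference 1.70, adjusted p = 5.04e-14). Gbp3 was 3.07-fold and Gbp8 2.93-fold higher, and the abundant Gbp2 and Igtp 1.58-fold and 1.83-fold. With DMSO this group had the opposite direction: 15 of 16 were lower in WT and none was higher, with a median of -0.51. Gbp9 then averaged 46.4 ± 2.31 CPM in WT and 73.7 ± 4.23 CPM in STINGgt/gt cells, and the STINGgt/gt mean with CMA, 78.5 ± 3.68 CPM, stayed near its DMSO level. The difference of the genotype differences passed the threshold for all 16 genes.

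MHC class I presentation genes were higher in WT in 20 of 21 cases, with a median log2 difference of 0.82, and Erap1, an aminopeptidase that trims peptides, was lower (-0.34). Tapbp, the tapasin gene, had 966, 1013 and 941 CPM in WT and 240.4, 228 and 243 CPM in STINGgt/gt cells (log2 difference 2.04, SE 0.052). B2m, the light chain of all class I molecules, was 2.27-fold higher, at 2998, 3067 and 3066 CPM against 1294, 1340.0 and 1382 CPM. H2-K1, H2-D1 and H2-Q6 were 2.21-fold, 2.30-fold and 3.60-fold higher, but the class I heavy chain genes resemble each other and reads may be split between them. B cells and myeloid cells also express these genes, and their markers were higher in WT under both treatments. With DMSO, 4 of the 21 genes were higher and 12 lower in WT.

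**Figure D3:**
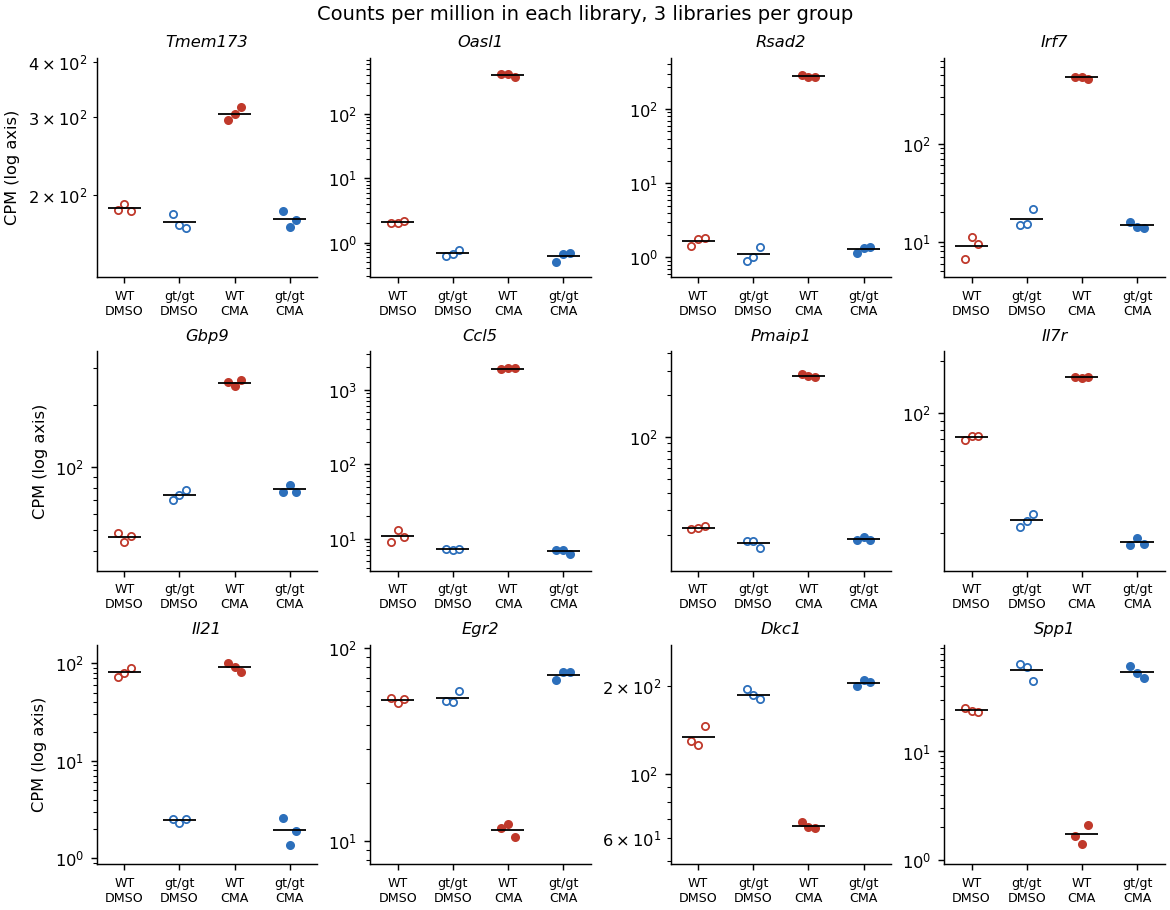
CPM (log axis) of 12 genes in each of the 12 libraries, 3 per group, with the group mean as a line. WT is red and STINGgt/gt (gt/gt) blue, with DMSO open and CMA filled; WT libraries with CMA stand above the other groups for Oasl1, Rsad2, Irf7, Ccl5 and Pmaip1 and below them for Egr2, Dkc1 and Spp1, while Il21 separates the genotypes under both treatments.

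NF-kB factors and their targets were higher in WT in 19 of 26 cases and lower in 4, with a median log2 difference of 0.80. Tnfaip3, which encodes the feedback inhibitor A20, had 642, 635 and 635 CPM in WT and 119.7, 122 and 122 CPM in STINGgt/gt cells, a 5.26-fold difference (adjusted p = 4.31e-17). The inhibitor gene Nfkbie was 5.18-fold higher and Nfkb2, which encodes the p100 precursor, 2.55-fold. Nfkb1, encoding p105, did not differ past the threshold, at 755, 760.5 and 734 CPM against 748, 720.1 and 729 CPM. The WT libraries agreed closely for Tnfaip3 and lay well apart from the STINGgt/gt libraries. The members lower in WT were Rel (-0.27), Lta (-0.30), Tnf (-0.44) and the CD40 ligand gene Cd40lg (-1.68). The call of Rel was lost in 8 of 12 fits that left out a library (adjusted p = 0.052 to 0.123) and in 4 other alternatives (DESeq2, its size factors, limma on the log2 table of the authors and a mean count of at least 50, adjusted p = 0.0528 to 0.116).

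Chemokine genes with enough reads were higher in WT in 9 of 11 cases. Ccl5, which attracts T cells and monocytes, changed most in absolute terms, with 1894, 1938 and 1965 CPM in WT and 6.97, 6.92 and 6.18 CPM in STINGgt/gt cells (log2 difference 8.17, SE 0.093, adjusted p = 3.18e-19). Cxcl10, a ligand of CXCR3, had 280.1, 260.1 and 268 CPM against 9.29, 10.3 and 9.48 CPM, and Cxcl11, another ligand of that receptor, 6.70, 6.85 and 5.01 CPM against 0.319, 0.294 and 0.624 CPM. Ccl5 averaged 10.8 ± 1.95 CPM in WT and 7.13 ± 0.172 CPM in STINGgt/gt cells with DMSO. Of the 12 libraries, the 3 from WT cells with CMA stood far above the others. Ccl3 and Xcl1 were the 2 chemokines lower in WT, with log2 differences of -0.85 and -1.94.

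Cytokine genes were higher in WT in 18 of 26 cases and lower in 3, with a median log2 difference of 1.29, and with DMSO 18 were higher and 5 lower, with a median of 1.40. These were not in all cases the same members: between treatments the difference rose for 11, fell for 6 and did not change past the threshold for 9, while it changed for 58.8% of all genes tested. Il10, an anti-inflammatory cytokine, had 8.70, 9.69 and 9.90 CPM in WT and 0.160, 0.0905 and 0.104 CPM in STINGgt/gt cells with CMA (log2 difference 6.30) and a log2 difference of 5.34 with DMSO. Il24 had 29.1, 26.04 and 23.5 CPM against 0.958, 0.271 and 0.234 CPM, and its STINGgt/gt libraries differed among themselves. Il27, the p28 chain of interleukin 27, had 80, 67 and 41 reads in WT and 0, 1 and 0 in STINGgt/gt libraries, a ratio of 226 (95% exact interval 40.1 to 8979), and Ebi3, which encodes its partner chain, was 8.41-fold higher at 106, 106 and 94.3 CPM against 13.02, 11.5 and 11.95 CPM. Lif had 484, 506 and 451 CPM against 230.1, 238 and 235 CPM, with DMSO means of 273 ± 15.03 CPM and 246 ± 13.5 CPM. Tgfb1 was lower in WT, at 103, 114 and 108 CPM against 195, 188 and 213 CPM (log2 difference -0.87, adjusted p = 6.5e-10). Myeloid and B cell markers, whose cells make several of these cytokines, were also higher in WT under both treatments. Their part in the cytokine difference was not tested.

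Genes of the mitochondrial route to apoptosis, in which BH3-only proteins release cytochrome c and the apoptosome activates caspases, were higher in WT in 12 of 19 cases, lower in 4 and not past the threshold in 3, with a median log2 difference of 0.48. Pmaip1, which encodes the BH3-only protein NOXA, had 285, 273 and 268 CPM in WT and 18.3, 19.3 and 18.2 CPM in STINGgt/gt cells, a 14.8-fold difference (log2 3.89, SE 0.054, adjusted p = 3.45e-18). Bcl2l11, encoding BIM, had 249, 243 and 240.4 CPM against 79.6, 79.997 and 83.9 CPM, and Bbc3, encoding PUMA, 50.7, 55.6 and 53.8 CPM against 22.998, 22.01 and 23.9 CPM. The 3 BH3-only genes were thus 14.8-fold, 3.01-fold and 2.32-fold higher, and with DMSO they differed by 0.36, 0.14 and -0.49 on the log2 scale.

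Downstream of them, Apaf1, the scaffold of the apoptosome, was 3.34-fold higher at 332, 318 and 335 CPM against 95.9, 101 and 98.04 CPM. Bad, another BH3-only gene, was 1.73-fold higher. Diablo, which encodes an inhibitor of the inhibitors of apoptosis, had 50.1, 47.9 and 49.9 CPM against 46.1, 47.1 and 46.1 CPM and did not pass the threshold (log2 difference 0.086, adjusted p = 0.122). Members lower in WT were Bik, at 0.697, 0.864 and 0.473 CPM against 2.37, 2.42 and 2.44 CPM, and Bid, Cycs and Bax, by 0.94, 0.78 and 0.18 on the log2 scale. The call of Bax was lost without WT replicate 1 or 3 with CMA, STINGgt/gt replicate 1 with CMA or WT replicate 1 with DMSO (adjusted p = 0.0508 to 0.184), with limma on the log2 table of the authors (adjusted p = 0.0963) and with a mean count of at least 50 (adjusted p = 0.0603). The group therefore held changes in both directions, and the largest of them was that of Pmaip1.

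Prosurvival genes were also higher in WT, in 11 of 13 cases with none lower, with a median log2 difference of 0.54. Mcl1, whose product binds NOXA and BIM, had 530.2, 524 and 536 CPM against 353, 376 and 367 CPM (log2 difference 0.54), and Bcl2 436, 438 and 435 CPM against 330.1, 372 and 364 CPM (0.30). Birc2 and Cflar, encoding cIAP1 and the caspase 8 regulator cFLIP, were 2.44-fold and 2.27-fold higher, and Naip5 was 5.09-fold higher at a low level. Among 15 death receptor genes, 7 were higher and 4 lower. Traf1 was 3.61-fold higher. The necroptosis pair split: Mlkl, the executioner, was higher at 31.999, 32.1 and 32.3 CPM against 11.4, 9.45 and 9.33 CPM, and Ripk3, the kinase that activates it, was lower at 14.3, 15.6 and 15.4 CPM against 44.98, 45.3 and 44.9 CPM.

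Targets of p53, the stress-activated tumour suppressor, were higher in WT in 18 of 29 cases and lower in 7, with a median log2 difference of 0.22. Trp53 itself had 188, 192 and 188 CPM in WT and 160.4, 156 and 174 CPM in STINGgt/gt cells (log2 difference 0.21, adjusted p = 0.002). Mdm2, its ubiquitin ligase and target, was 1.44-fold higher. Gadd45b was 5.36-fold higher at 102, 104 and 97.4 CPM against 20.1, 18.4 and 18.1 CPM, and Gadd45g 3.25-fold higher, though the latter had a log2 difference of 1.61 with DMSO too. Ccng1, another target, had 306, 294 and 299.6 CPM against 292, 305 and 289.9 CPM and did not pass the threshold. Plk2 was lower, by 1.54 on the log2 scale.

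Genes of T cell identity and activation did not move as 1 block. Of 28 genes of the T cell receptor complex and its proximal signalling, 8 were higher in WT, 12 were lower and 8 did not pass the threshold. Lat, the adaptor that carries the receptor signal, was lower, at 161, 166 and 176 CPM against 421, 382 and 366 CPM (log2 difference -1.22, adjusted p = 2.3e-11), as was its partner Lcp2, which encodes SLP-76, at 322, 317 and 325 CPM against 681, 669 and 631 CPM. Cd28 differed by -0.22 on the log2 scale, and Ptprc, encoding CD45, by 0.14 without passing the threshold (adjusted p = 0.0585, but it passed in 4 fits without 1 library and in 7 other alternatives, at 0.00572 to 0.0492).

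A list of naive-state and homing genes, 3 of which mark activation or tissue residence and were higher in WT, had 16 of 20 genes higher and 4 lower, with a median log2 difference of 0.49. Il7r, the receptor chain for the survival cytokine interleukin 7, had 163, 159.8 and 161 CPM in WT and 16.8, 18.7 and 17.1 CPM in STINGgt/gt cells, a 9.17-fold difference (adjusted p = 1.11e-16). Ccr7, the chemokine receptor for entry to lymph nodes, had 2215, 2287 and 2288 CPM against 645, 629 and 628 CPM. Satb1, a chromatin organiser, was 3.13-fold higher. Id3, an inhibitor of E proteins, was lower, at 11.02, 10.3 and 9.93 CPM against 42.4, 39.2 and 40.2 CPM. With DMSO the log2 differences were 1.62 for Il7r, 1.20 for Satb1 and -0.70 for Id3, and all 3 passed the threshold. For Ccr7 the DMSO means of 563 ± 37.8 CPM in WT and 584 ± 21.2 CPM in STINGgt/gt cells did not differ past the threshold.

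Among 28 activation and checkpoint genes, 16 were higher and 10 lower in WT. Cd80 and Cd86, ligands of CD28 and CTLA-4 that are best known from antigen-presenting cells, had 135, 127 and 125 CPM against 14.5, 13.3 and 12.1 CPM and 80.1, 79.2 and 79.1 CPM against 9.18, 9.70 and 9.09 CPM. With DMSO, Cd80 averaged 10.98 ± 1.28 CPM in WT and 13.9 ± 1.08 CPM in STINGgt/gt cells, whereas Cd86 averaged 32.9 ± 4.23 CPM and 9.31 ± 0.663 CPM. Cells that carry both ligands include the B and myeloid cells whose markers were higher in WT, and the part of those cells was not tested. Il2ra and Tnfrsf9, receptors induced by activation, were 1.54-fold and 1.38-fold higher. Egr2, a factor induced by antigen receptor and calcium signals, was lower in WT, at 11.7, 12.3 and 10.5 CPM against 68.2, 74.6 and 75.1 CPM (log2 difference -2.66, SE 0.068, adjusted p = 4.66e-15). Its DMSO means, 53.9 ± 1.55 CPM in WT and 55.2 ± 4.07 CPM in STINGgt/gt cells, lay close together, so the WT libraries with CMA were the low ones.

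Helper lineage factors were higher in WT in 17 of 22 cases, with a median log2 difference of 0.84 that compares with 0.64 under DMSO. Runx3 had 472, 503 and 476 CPM against 191, 177 and 191 CPM and Tbx21, the T-bet gene, 163, 169 and 164 CPM against 116, 109 and 111 CPM. Maf and Hlx were 5.06-fold and 3.29-fold higher from low levels. Their log2 differences were larger with DMSO, 3.45 against 2.34 for Maf (adjusted p of the change = 0.00106) and 4.29 against 1.72 for Hlx (adjusted p of the change = 1.08e-05). Cytotoxic granule genes were higher in 10 of 13 cases, with a median of 1.24 with CMA and 1.30 with DMSO. Gzmb, the granzyme B gene, had 1415, 1462 and 1512 CPM in WT and 676, 639.5 and 631 CPM in STINGgt/gt cells, and the change of its difference between treatments did not pass the threshold (log2 -0.12, adjusted p = 0.236). The granzyme inhibitor genes Serpinb6b and Serpinb9 were 6.10-fold and 5.26-fold higher with CMA, while with DMSO the log2 difference was 0.40 for Serpinb6b (adjusted p = 6.47e-05) and 0.058 for Serpinb9, which did not pass the threshold. Srgn, encoding the granule proteoglycan serglycin, was 3.93-fold higher. The summed level of CD8 and natural killer cell markers, cells rich in granules, was 48.7 to 50.5 CPM in WT and 28.0 to 29.9 CPM in STINGgt/gt cells with CMA, and their part in these differences was not tested. Most of that sum came from Cd8a and Cd8b1. Of the other tested members, Klrk1 and Tyrobp were higher in WT, Klrb1c (-1.70) and Ncr1 (-1.27) were lower and Klre1 (-0.42) did not pass the threshold.

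Genes of ribosome biogenesis, the nucleolar machinery that makes ribosomal RNA and assembles ribosomes, were mostly lower in WT. Of 30 members with Myc and its partners, 27 were lower in WT, 19 of them by at least 2-fold, and 1 was higher, with a median log2 difference of -1.19. Rrp12 had 19.5, 18.02 and 19.7 CPM in WT and 66.1, 62.5 and 64.5 CPM in STINGgt/gt cells (log2 difference -1.75, SE 0.05, adjusted p = 1.33e-14). Dkc1, the pseudouridine synthase dyskerin, had 68.5, 65.5 and 64.9 CPM against 201, 209.8 and 207 CPM, and Utp20 45.6, 43.3 and 44.4 CPM against 141, 144 and 139 CPM. The abundant nucleolar proteins followed, with Npm1 at 1774, 1648 and 1844 CPM against 3046, 3236 and 2912 CPM and Ncl 1.95-fold lower in WT. Myc itself was the 1 member higher in WT, at 486, 524 and 483 CPM against 388, 391 and 425 CPM (log2 difference 0.31, adjusted p = 8.35e-05). With DMSO 22 of the 30 genes were lower in WT, with a median of -0.24, and the change between treatments was negative and past the threshold for 28.

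Genes of the ribosome itself differed less but in the same direction. Of 59 gene models of cytosolic ribosomal proteins, 51 were lower in WT and none was higher, with a median log2 difference of -0.27, and none reached 2-fold. Rpl3 had 1616, 1610.1 and 1623 CPM against 2444, 2374 and 2297 CPM, Rpl4 3379, 3349 and 3333 CPM against 4348, 4334 and 4282 CPM, and Rplp0, at -0.062, did not pass the threshold. Nuclear genes of oxidative phosphorylation were lower in 32 of 43 cases with none higher (median -0.26), and Ndufs1, a core subunit of complex I, had 72.3, 69.8 and 74.3 CPM against 105, 108 and 101 CPM. With DMSO the medians of these 2 groups were 0.04 and 0.12, and 18 oxidative phosphorylation genes were higher in WT and none lower. Of 7 tested protein-coding genes of the mitochondrial genome, mt-Co1 was higher in WT (0.53) and 6 did not pass the threshold.

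**Figure D4:**
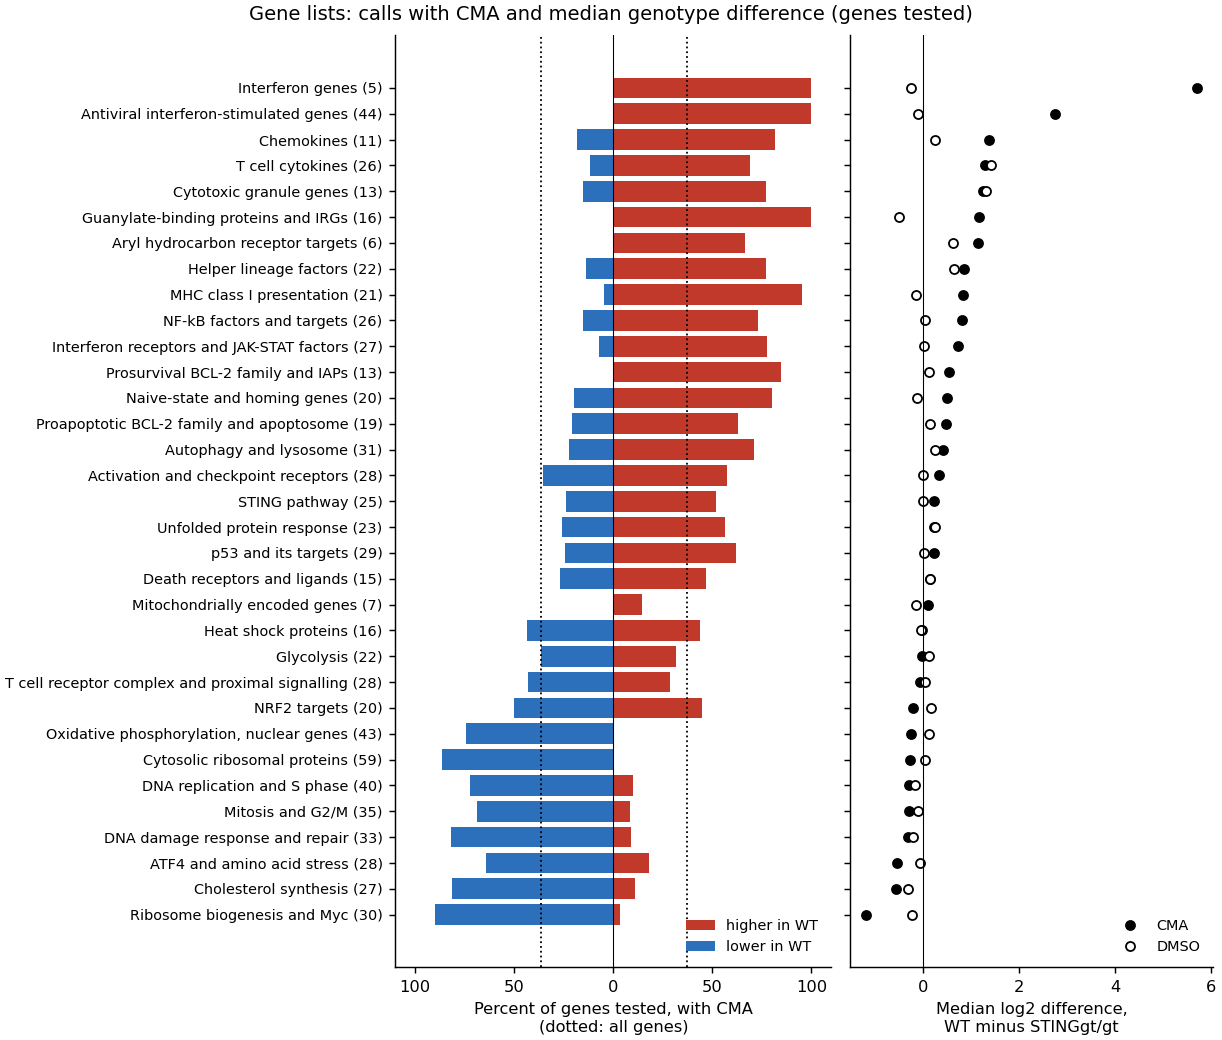
Gene lists ordered by their median log2 difference with CMA. Left, percent of each list's tested genes (number in parentheses) that were higher (red) or lower (blue) in WT, with dotted lines at the shares over all genes, 37.0% and 36.5%; right, median log2 difference with CMA (filled) and DMSO (open).

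Cell cycle and repair genes were lower in WT in most cases and by small amounts. Of 40 DNA replication genes, 29 were lower and 4 higher (median -0.29). Mcm2, of the replicative helicase, had 172, 172 and 171 CPM against 289, 286 and 293 CPM, and Pola1, of the polymerase that primes synthesis, 80.01, 75.4 and 80.8 CPM against 137, 143 and 134 CPM, whereas Ccne1, the cyclin E1 gene, was 2.13-fold higher. Of 35 mitosis genes, 24 were lower and 3 higher (median -0.30). Bub1b and Mad2l1, of the spindle checkpoint, were 1.57-fold and 1.54-fold lower in WT, Pttg1, the securin gene, was 1.96-fold higher, and Mki67, a common marker of cycling cells, did not differ past the threshold at 991, 927 and 1087 CPM against 924, 1024 and 1028 CPM. Of 33 DNA damage genes, 27 were lower and 3 higher (median -0.33). Xrcc6, which encodes the end-binding protein Ku70, had 40.3, 42.4 and 42.6 CPM against 98.6, 98.6 and 96.4 CPM, and the uracil glycosylase gene Ung was 2.23-fold lower, while the kinase gene Atm was 2.88-fold higher. With DMSO most replication and repair genes were already lower in WT, 27 of 40 and 24 of 33.

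Metabolic genes split by pathway. Cholesterol synthesis genes were lower in WT in 22 of 27 cases (median -0.57), and also in 20 of 27 with DMSO (median -0.32). Lss, which closes the sterol ring, had 84.1, 82.7 and 83.3 CPM against 221, 225 and 224 CPM. The list also held 3 members higher in WT. Of these, Abca1, which exports cholesterol, was 7.23-fold higher, and Ch25h, which makes 25-hydroxycholesterol, 2.65-fold higher at 0.391, 0.463 and 0.630 CPM against 0.266, 0.113 and 0.182 CPM. Genes of the ATF4 amino acid response were lower in 18 of 28 cases (median -0.55, against -0.08 with DMSO). Asns, the asparagine synthetase gene, had 67.1, 67.97 and 64.9 CPM against 262, 239 and 228 CPM, and the serine synthesis genes Phgdh and Psat1 76.2, 78.03 and 74.9 CPM against 281, 242 and 253 CPM and 266, 266 and 257 CPM against 612, 589 and 582 CPM. Ppp1r15a, a phosphatase subunit of the same response, was 3.14-fold higher. Glycolysis genes showed no common direction, with 7 higher and 8 lower of 22: Hif1a was 1.81-fold higher, with a log2 difference of 0.77 under DMSO, and Ldha was 1.19-fold lower.

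Stress and degradation pathways also ran both ways. Autophagy and lysosome genes were higher in WT in 22 of 31 cases and lower in 7 (median 0.40). Npc2, a lysosomal cholesterol carrier, had 1723, 1711 and 1757 CPM against 490.4, 484 and 467 CPM, the autophagy receptor gene Optn was 3.73-fold higher, and Gabarapl1 was 2.52-fold lower. Genes of the unfolded protein response were higher in 13 of 23 cases, led by Derl3 at 8.37, 8.30 and 10.1 CPM against 1.52, 1.33 and 1.12 CPM, with similar medians under CMA (0.23) and DMSO (0.25). Of 16 heat shock genes 7 were higher and 7 lower. The inducible genes Hspa1a and Hspa1b, near-identical copies, were 5.49-fold and 7.13-fold higher, and Hspd1, the mitochondrial chaperonin, was 2.33-fold lower. Of 20 NRF2 targets, 9 were higher and 10 lower: Keap1, the inhibitor of NRF2, was 2.08-fold higher and Txnrd1, a thioredoxin reductase, 2.08-fold lower. Targets of the aryl hydrocarbon receptor, a sensor of planar aromatic compounds, were looked at because CMA has such a shape, and 6 of 12 could be tested. Il22 and Tiparp were 26.3-fold and 2.64-fold higher in WT, while Cyp1a1, its best known target, had at most 1 read in any of the 6 libraries. With DMSO, 4 of the 6 tested targets were also higher in WT, with a median log2 difference of 0.61 against 1.13 with CMA. Il22 and Tiparp then differed by 2.15 and 0.78 on the log2 scale, and both passed the threshold.

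To place the differences with CMA, the genotypes were also compared with DMSO. There, 5900 genes differed, 42.7% of those tested, 3160 higher and 2740 lower in WT. The genotype difference itself changed between treatments for 8123 genes, 58.8% of those tested. Of the 10151 genes called with CMA, 1627 (16.0%) passed in the same direction with DMSO with no change past the threshold, 1945 did so with a larger difference under CMA, and 241 with a smaller one. A further 4125 (40.6%) passed with CMA alone and changed between treatments, and 1010 passed under both treatments in opposite directions. No library is shared between the CMA and the DMSO comparison.

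**Figure D5:**
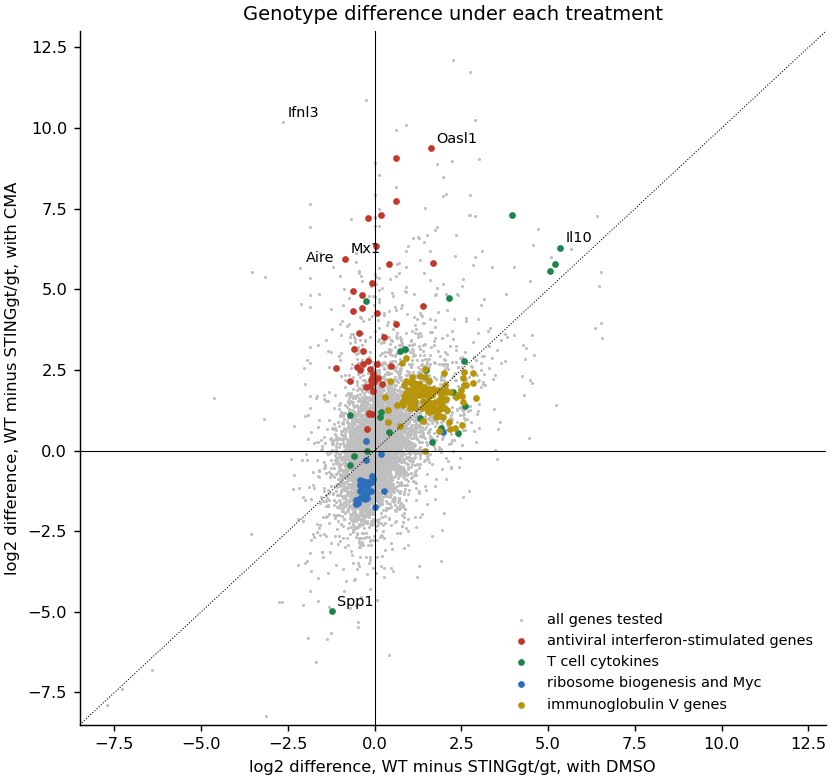
Log2 difference between WT and STINGgt/gt T cells with CMA (vertical axis) against the same difference with DMSO (horizontal axis), 1 point per gene, with the line of equality dotted. Antiviral interferon-stimulated genes lie on both sides of 0 on the horizontal axis, with Mx1 at -0.85 and Oasl1 at 1.63, and all above 0 on the vertical axis, while Il10 and the immunoglobulin V genes lie to the right under both treatments.

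Among genes with a mean of at least 50 reads over the 12 libraries, the 5 largest differences that both treatments shared without a change past the threshold were all in favour of WT: Il10, Timp1, Il24, Il21 and Ido1. Il21, a cytokine of follicular helper cells, had 99.9, 92.7 and 81.1 CPM in WT and 2.58, 1.36 and 1.92 CPM in STINGgt/gt cells with CMA, and averaged 80.8 ± 8.74 CPM and 2.46 ± 0.139 CPM with DMSO. Timp1, a metalloproteinase inhibitor, had 23.2, 18.5 and 8.48 CPM against 0.186, 0.0679 and 0.416 CPM with CMA. Ido1, which degrades tryptophan, differed by 5.25 with CMA and 4.48 with DMSO on the log2 scale. For these genes the WT libraries were high whether or not CMA was present. The change of Il21 between treatments, 0.52 (adjusted p = 0.0648), passed the threshold without WT replicate 3 with DMSO, WT replicate 3 with CMA or STINGgt/gt replicate 1 with CMA (adjusted p = 0.0113 to 0.0305), and also with no filter on low counts (adjusted p = 0.0013) and with limma on the log2 table of the authors (adjusted p = 0.0346). The change of Il10 passed with limma on that table (adjusted p = 0.0179).

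Genes with opposite directions included several interferon-stimulated genes, which were lower in WT with DMSO and higher with CMA. Mx1 averaged 2.07 ± 0.407 CPM in WT and 3.79 ± 0.677 CPM in STINGgt/gt cells with DMSO, and had 242, 229 and 227 CPM against 3.62, 4.09 and 3.53 CPM with CMA. Tnfsf4, which encodes OX40 ligand, averaged 1.56 ± 0.131 CPM and 4.81 ± 0.176 CPM with DMSO, and had 159.8, 140.4 and 144 CPM against 5.32, 5.34 and 4.68 CPM with CMA. Aire, the factor that drives self-antigen expression in the thymus, had 24.9, 24.4 and 22.4 CPM against 0.399, 0.543 and 0.442 CPM with CMA and averaged 0.0893 ± 0.0576 CPM and 0.372 ± 0.0112 CPM with DMSO. Irf7 and Ddx60, an antiviral helicase, were the other 2, with DMSO log2 differences of -0.89 and -0.52. The DMSO call of Ddx60 was lost without WT replicate 1 or 2 or STINGgt/gt replicate 1 with DMSO (adjusted p = 0.0957 to 0.17), with limma-voom (adjusted p = 0.0529) and with only the groups compared (adjusted p = 0.0868). The STINGgt/gt means of Mx1 and Tnfsf4 with CMA, 3.75 ± 0.301 CPM and 5.11 ± 0.377 CPM, lay near their DMSO means.

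Transcripts of immunoglobulins and T cell receptors were called by gene class. Of 119 immunoglobulin V genes tested, 113 were higher in WT with CMA and none was lower, with a median log2 difference of 1.70, while of 82 T cell receptor V genes 5 were higher and 21 lower, with a median of -0.22. Among B cell markers, Ms4a1, encoding CD20, had 57.6, 55.2 and 60.95 CPM in WT and 16.9, 18.1 and 18.1 CPM in STINGgt/gt cells. It also differed with DMSO, by 0.46 on the log2 scale. Erythroid and platelet transcripts were higher in WT for 5 of 5 genes but summed to at most 3.93 CPM. Of 7 CD8 and natural killer cell markers, 4 were higher and 2 lower, with Cd8a at 12.2, 13.8 and 12.6 CPM against 5.67, 5.52 and 5.25 CPM.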

How the data were processed

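Poly(A) RNA of CD4+ T cells was sequenced from stranded libraries, 3 for each genotype with CMA and 3 for each with DMSO. According to the submitters' processing notes, the authors used cutadapt 1.3, STAR 2.4.0f1, HTSeq 0.6.1 and RSEM 1.2.16 with GRCm38. The deposited files hold raw counts of reads per gene for each library, which were used here, and a log2 table of 11921 genes by the authors, whose values equal the log2 of the count plus 0.5 and a constant per library, used as an alternative. The strand setting of the counting is not given in the sources used here, so reads of overlapping and antisense genes may not be separable. The 5 summary lines of each count file, such as reads with no gene (4.86% to 7.16%) or no unique position (27.8% to 30.3%), were left out of library sizes, which ranged from 27414450 to 43784910 reads. Of 38924 gene IDs, 11921 took names from the deposited table, 25762 from the reference and 1241 had none.

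Counts were scaled by the trimmed mean of M values, filtered by expression within groups, and fitted over all 12 libraries in 1 model with 4 groups by edgeR 4.0.16 (R 4.3.3, quasi-likelihood test, Benjamini-Hochberg adjusted p over 13811 genes, threshold 0.05). Contrasts were WT minus STINGgt/gt with CMA, the same with DMSO, and their difference. Alternatives used DESeq2 1.42.0 and limma 3.58.1, other scalings, filters and thresholds, thinning to 27414450 reads, the replicate number as a block, and leaving out each library. On data simulated from these libraries for the CMA comparison (13792 genes), edgeR recovered 87 of 100 genes changed 2-fold and 98 of 100 changed 4-fold, with 14 false calls. The simulation changed only 200 genes, in equal numbers up and down, whereas 73.5% of genes were called in the real comparison. It therefore gives no error rate for the real calls. Replicates of all groups differed by more than counting noise.

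Gene lists (33 pathways and 6 marker sets) and the comparison itself were chosen with earlier results of these data known. Named genes are the 10 largest and 10 smallest differences with a mean of at least 50 reads and no overlap, in each list the 3 largest called differences, the 2 most abundant members and members with at most 3 reads in every library of 1 genotype and more than 10 in every library of the other, genes named by the study, and 5 genes each shared by or opposite between treatments, with a mean of at least 50 reads over the 12 libraries; other genes were chosen after their values were seen, and some genes that the rule names are not reported here. Intervals of ratios are exact and, like the floor of 3 reads, cover counting error only. Gene positions are from GENCODE on GRCm38 and promoter windows from RefSeq on GRCm38.p6.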

Additional observations from a re-analysis of the deposited data

Results flagged for a closer look

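For 8123 genes the genotype difference itself changed between DMSO and CMA (edgeR quasi-likelihood test of the difference of differences, adjusted p under 0.05). The 5 genes named for passing in opposite directions, lower in WT with DMSO and higher in WT with CMA, changed by 7.82 for Aire, 6.80 for Mx1, 6.47 for Tnfsf4, 6.36 for Ddx60 and 5.90 for Irf7 on the log2 scale. All 5 had a positive difference in each of the 3 WT libraries with CMA against each STINGgt/gt library. The direction with DMSO rests on few reads for Aire, which averaged 0.0893 ± 0.0576 CPM in WT and 0.372 ± 0.0112 CPM in STINGgt/gt cells. The DMSO call of Ddx60 was lost without WT replicate 1 or 2 or STINGgt/gt replicate 1 with DMSO (edgeR, adjusted p = 0.0957 to 0.17), with limma-voom (0.0529) and with only the groups compared (0.0868).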

How the results depend on the processing

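Under 12 alternatives and the leaving out of each of 12 libraries, none of the genes called with CMA was called in the opposite direction. The DMSO calls of Bcl2l11, Ddx60, Inhbb, Lif and Tacr2 were lost without some DMSO or CMA library (adjusted p = 0.0526 to 0.17) and, except that of Inhbb, in 1 to 5 other alternatives (adjusted p = 0.0529 to 0.0923), and the change of Inhbb between treatments without STINGgt/gt replicate 2 with DMSO (adjusted p = 0.942). Leaving out 1 library gave 4828 to 5358 genes higher and 4711 to 5190 lower in WT with CMA, 2700 to 3271 and 2260 to 3122 with DMSO, and 3493 to 3991 and 4012 to 4515 for the change between treatments. Requiring a 2-fold difference left 1797 higher and 1139 lower with CMA, 791 and 215 with DMSO, 1201 and 1008 for the change, and 173 and 51 members of the gene lists together with CMA. The other counts stayed within 1.5 times, and no list median changed sign with library-size scaling, which moved the median of all genes from -0.0047 to -0.055. Of 5140 recomputed values of named genes, 5058 kept direction and side of the threshold, 2 genes (Bax and Rel) lost their call with CMA in some alternative, and 4 (Diablo, Klre1, Ptprc and Rplp0) passed in some only, Diablo without WT replicate 3 with DMSO (adjusted p = 0.0378) and Klre1 without STINGgt/gt replicate 1 with CMA (adjusted p = 0.0334). Some differences not past the threshold changed sign: with library-size scaling Ccng1 was -0.031, Irf4 -0.0057, Nfkb1 -0.016 and Mki67 -0.037, and without 1 library Mki67 was -0.049 to 0.066 with CMA, Egr2 -0.069 to 0.024 with DMSO and Hif1a -0.0077 to 0.24 for the change, where it passed without WT replicate 3 with DMSO (adjusted p = 0.00462). The cause was not tested.

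The labels number replicates 1 to 3 in each group. A fit with the replicate block called 5079 genes as higher and 5031 as lower in WT with CMA and shared 98.9% of the calls. Deviations of same-numbered WT and STINGgt/gt libraries correlated at 0.037, -0.10 and -0.054 with CMA, so the numbers were not taken to pair the genotypes. Same-numbered DMSO and CMA libraries correlated at 0.0019, 0.10 and 0.13 in WT and at 0.063, 0.060 and 0.059 in STINGgt/gt cells. Differently numbered ones ranged from -0.15 to 0.056 and from -0.061 to 0.0035. A pairing of DMSO with CMA libraries within a genotype is thus possible. The main fit did not use it for the change between treatments. Fewer calls were made among low genes: 55.2% of those with a mean of at most 57 reads were called with CMA, against 80.8% of those with at least 3211.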

Other observations

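Small nucleolar RNAs, which guide the modification of ribosomal RNA and mostly lie in introns of host genes, followed the direction of the ribosome biogenesis genes. Of 91 tested, 51 were lower in WT with CMA and 1 was higher, with a median log2 difference of -0.81. Reads on them can come from unspliced host transcripts and selection of poly(A) RNA does not target them, and the part of this in the difference was not tested.

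Among the genes read in WT cells with CMA and at most 3 times in any STINGgt/gt library with CMA were several of immune or growth function, chosen after their values were seen. Ccnd1, the cyclin D1 gene, had 72, 73 and 60 reads against 2, 0 and 3. Apol9b, of the apolipoprotein L family, had 77, 75 and 69 reads against 3, 1 and 2. Tlr3, the sensor of double-stranded RNA, had 27, 19 and 24 reads against 1, 0 and 0, and Il31, a cytokine, had 22, 18 and 15 against none. In the other direction, Egr4, of the family of Egr2, had 0, 1 and 1 reads in WT and 51, 60 and 47 reads in STINGgt/gt cells, and Ascl2, a transcription factor of follicular helper cells, 2, 1 and 0 against 25, 27 and 26.

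Some genes separated the genotypes in this way under both treatments, 9 with more reads in WT and 3 with more in STINGgt/gt cells. The 9 were Ly6g, Ccr3, Spon1, Il27, Il23r, Hbb-bs, Glis3, Sox5os3 and Igha, with totals of 114 reads for Glis3 to 437 reads for Ccr3 over the 6 WT libraries and at most 10 over the 6 STINGgt/gt libraries. Several of them are markers of granulocytes, plasma cells or red cells. The 3 with more reads in STINGgt/gt cells lie side by side on chromosome 17 between positions 6430112 and 6477102 of GRCm38: Dynlt1b and both gene models named Tmem181b-ps, which overlap. They had 179, 331 and 130 reads over the 6 STINGgt/gt libraries and 0 reads in all 6 WT libraries. Related genes, Dynlt1a, Dynlt1c, Dynlt1f and Tmem181a, are annotated on the same chromosome. The STING mutation and any other difference between the mice of the 2 genotypes cannot be told apart with these libraries.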
